A study of Mus musculus with 12 samples.

Results

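Outer segment structure genes are the genes whose proteins build and hold in shape the stack of membrane discs in which photoreceptors catch light. The 6 genes described here, Prph2, Rom1, Prom1, Cdhr1, Rp1 and Rp1l1, were taken by name, out of 21853 protein-coding genes of the mm10 genome (GENCODE M21 annotation). Their data are the differentially methylated regions that overlap a gene or the 5 kb on either side of it. These are 64 of 193836 regions from whole-genome bisulfite sequencing (WGBS) and 151 of 592906 regions from bACE-seq.

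The study asked what loss of the TET enzymes does to the DNA of the mouse retina. WGBS reads 5-methylcytosine (5mC) and 5-hydroxymethylcytosine (5hmC) together, and bACE-seq reads 5hmC alone. Whole retinas of C57 BL/6J mice at postnatal day 21 were profiled, with 3 Cre- and 3 Tet tcKO libraries for each assay and 12 libraries in all. Per the study, retinas were pooled across animals, and both assays used DNA of the same extractions, so they do not rest on separate samples. Cre- animals, whose genotype the labels give as WT, were age-matched controls from Cre- breeders. Tet tcKO animals carried loxP-flanked Tet1, Tet2 and Tet3 and the Chx10::Cre-GFP transgene, which is active in retinal progenitor cells and can be mosaic. The authors crossed Cre-positive animals with each other to reduce this mosaicism, though some cells may still keep TET. As whole retina was used, a change within a cell type and a change in the share of that cell type in the tissue cannot be told apart. Every level of a single region below is the authors' mean of a group, in percent modified, from a method that smooths levels along the genome. Levels of a gene, or of a part of it, are averages of these means weighted by CpGs. For each region the lists give 1 mean per group, with neither the level of each library nor the reads behind it. No spread between replicates, no interval and no test over samples can therefore be given for any value. Differences are Tet tcKO minus Cre-, in percentage points. A WGBS region with a higher level in Tet tcKO is called a gain, and a bACE-seq region with a lower level is called a 5hmC loss.

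TET enzymes oxidise 5mC to 5hmC, a step on the path back to unmodified cytosine. The outer segment is a modified cilium. Prph2 (peripherin 2) and Rom1 are related tetraspanins that sit together at the rims of the discs and give them their curve. Prom1 (prominin 1) and Cdhr1 (a photoreceptor cadherin) lie where new discs grow out at the base of the outer segment. Rp1 and Rp1l1 are related doublecortin-domain proteins that bind the microtubules of the axoneme, along which the discs are stacked. Mutations in several of these genes are known causes of inherited retinal degeneration in people.

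The sequences just before the start sites of 5 of the 6 genes are shown, and that of Prom1 was searched but is not printed. They were read from the mm10 genome, run 5′ to 3′ on the strand of the gene and end at the base before the start of the principal transcript. CpGs, the sites of the modification, are in capitals. The first 3 belong to genes with a gain over the start site, at chr17:46910209-46910458 (plus strand), chr1:4360315-4360564 (minus strand) and chr14:63992256-63992505 (plus strand). The other 2, at chr14:37098348-37098597 and chr19:8929357-8929551 (both minus strand), belong to genes without one. The Rom1 sequence stops after 195 bases because the gene Eml3 starts there on the other strand.
Prph2: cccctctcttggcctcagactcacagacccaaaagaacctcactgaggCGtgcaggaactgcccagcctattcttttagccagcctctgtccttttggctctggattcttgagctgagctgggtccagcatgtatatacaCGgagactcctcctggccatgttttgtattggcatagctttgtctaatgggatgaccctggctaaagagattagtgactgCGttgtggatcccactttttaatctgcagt
Rp1: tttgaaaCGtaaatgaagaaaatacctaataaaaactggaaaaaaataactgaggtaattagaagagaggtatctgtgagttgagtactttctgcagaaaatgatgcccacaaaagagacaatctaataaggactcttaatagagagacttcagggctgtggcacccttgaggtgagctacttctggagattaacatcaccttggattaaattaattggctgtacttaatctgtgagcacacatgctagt
Rp1l1: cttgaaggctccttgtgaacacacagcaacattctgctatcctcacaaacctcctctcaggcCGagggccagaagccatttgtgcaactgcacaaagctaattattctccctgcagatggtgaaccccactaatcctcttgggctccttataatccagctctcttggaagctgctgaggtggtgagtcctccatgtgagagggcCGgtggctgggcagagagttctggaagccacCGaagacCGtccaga
Cdhr1: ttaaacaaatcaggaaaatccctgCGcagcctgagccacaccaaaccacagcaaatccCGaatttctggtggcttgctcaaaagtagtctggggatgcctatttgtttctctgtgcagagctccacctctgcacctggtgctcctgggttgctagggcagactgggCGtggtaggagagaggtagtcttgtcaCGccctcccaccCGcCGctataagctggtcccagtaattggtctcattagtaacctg
Rom1: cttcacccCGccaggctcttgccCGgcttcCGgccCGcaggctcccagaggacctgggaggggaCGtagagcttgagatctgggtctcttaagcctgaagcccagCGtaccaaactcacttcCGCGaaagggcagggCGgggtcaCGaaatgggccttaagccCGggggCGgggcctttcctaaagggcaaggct
The 250 bases before the start hold 3 CpGs in Prph2, 1 in Rp1, 4 in Rp1l1, 6 in Cdhr1, 6 in Prom1 and 17 in Rom1, where the median of all protein-coding genes is 9. The 3 starts in a gain are thus the 3 with the fewest CpGs among the 6. The letters TAATCC, the core bound by the photoreceptor factors CRX and OTX2, were found on either strand in 3 of the 6 windows. They begin 47 bases before the start in Rp1, 100 and 120 bases before it in Rp1l1, and 183 bases before it in Prom1. Of all 21853 promoters of this length, 6.46% hold them. The letters TGCTGA, part of the site of the rod factor NRL, were found 79 bases before the start in Rp1l1 and 139 bases before it in Prom1, against 14.9% of all promoters. TAATCC and TGCTGA overlap at none of these places, and a match of letters is no evidence of binding.

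At all 6 genes the modification of CpGs was higher in Tet tcKO and 5hmC was lower. Each gene had at least 1 WGBS gain, where 76.8% of all protein-coding genes had one, and at least 1 5hmC loss, where 88.2% of all genes had one. None of the 6 had a WGBS region with a lower level in Tet tcKO, which 4.91% of all genes had. None had a bACE-seq region with a higher level, which 0.403% of all genes had. A gain or a 5hmC loss somewhere at the locus is therefore common among all genes, and these counts say little of the 6. Together the 64 gains held 1399 of the 4582 CpGs at the 6 loci (30.5%), where WGBS stood at 44.1% in Cre- against 75.3% in Tet tcKO (31.2 points more). The 151 5hmC losses held 2508 CpGs (54.7%), with 24.2% 5hmC in Cre- and 5.95% in Tet tcKO. Tet tcKO thus kept 24.6% of the Cre- level of 5hmC in these regions. This is near the median of 23.6% over the 19278 genes with a 5hmC loss (10th percentile 18.4%, 90th percentile 27%). No correction for incomplete conversion in bACE-seq was made here, so part of the level left in Tet tcKO may not be 5hmC.

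The rise within gains was above the all-gene median at each of the 6 genes. It ranged from 26.9 points at Prom1 to 39 points at Prph2, beside a median of 15.8 points and a 90th percentile of 23 points over the 16774 genes with a gain. Of single gains, 40 of the 64 rose by 20 points or more, and 27.9% of all gains in the genome did so. A rise of 40 points or more was found in 7 of the 64, and in 1.38% of all gains. Some gains were long as well. Of the 64, 9 reached 3 kb or more and 2 reached 10 kb or more, against 767 and 21 of all 191164 gains. Cdhr1 had no such gain, and its longest was 1267 bp. Rp1l1 had gains of 9944 and 6232 bp, though its median gain was 385 bp, beside 380 bp over all gains. The median share of a gene's CpGs that lay in gains was 40.2% over the 6 genes and 6.17% over all genes. The 6 genes differed widely in this share, and the order over whole genes with their flanks is Prph2, Rom1, Rp1l1, Prom1, Cdhr1 and Rp1. Over the principal transcripts with 5 kb flanks, Rp1 moves from the last place (11.5%) to the first (85.3%), ahead of Prph2 (81.5%). For 5hmC losses the median share of CpGs was 75.8% over the 6 genes and 37.2% over all genes, with a 90th percentile of 64.7%. Over whole genes with flanks, Rom1 (45.1%) lay between these all-gene values and Rp1 (24.6%) below the all-gene median.

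**Figure D1:**
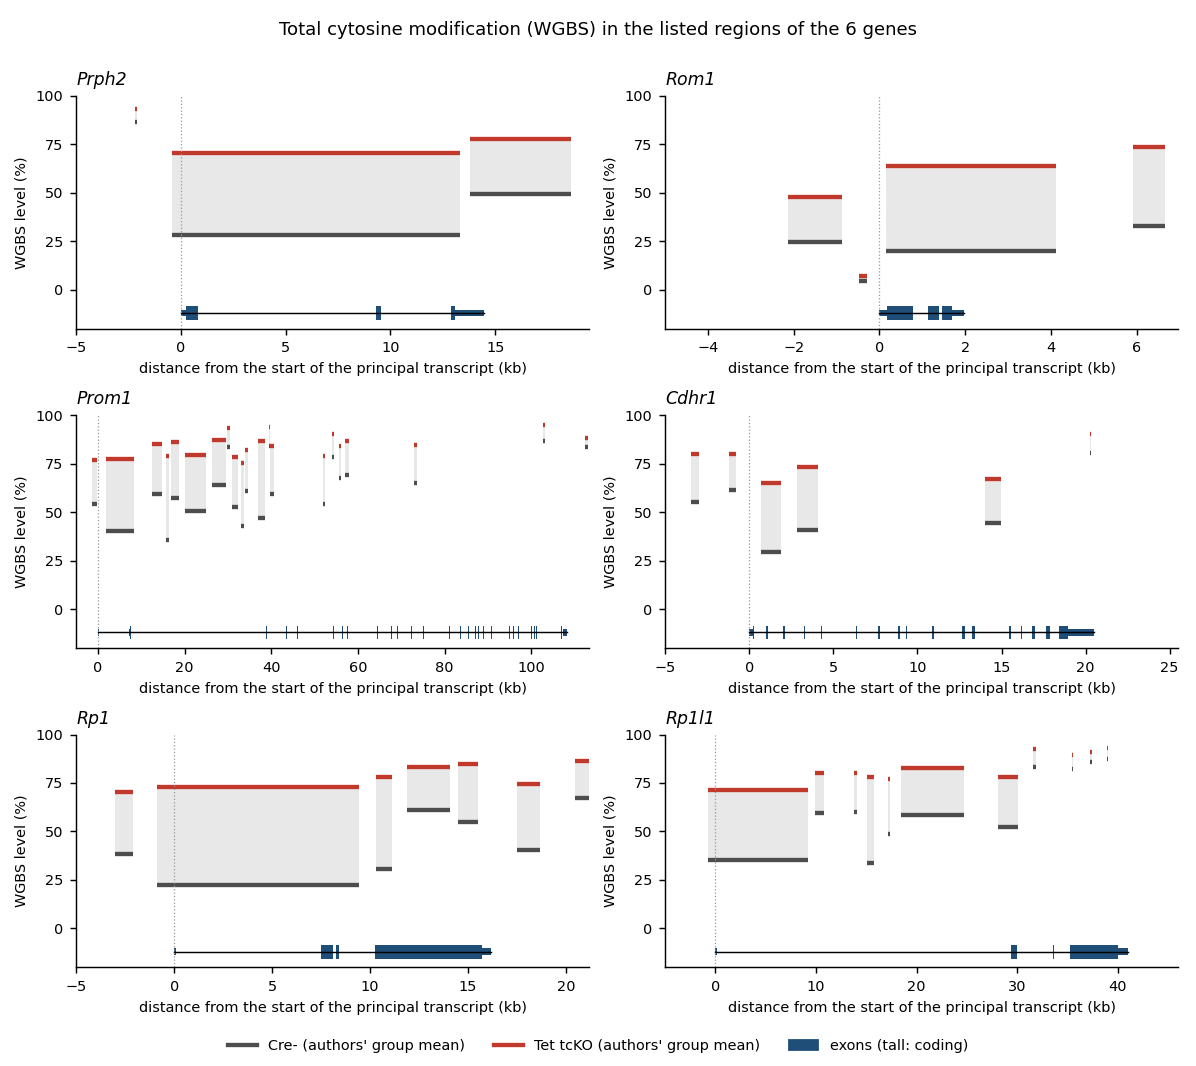
WGBS level in percent (vertical axis) of each listed region by distance from the start of the principal transcript in kb (horizontal axis), for the transcript and 5 kb on each side. Grey bars are the Cre- mean and red bars the Tet tcKO mean, shading joins both levels of a region, and blue boxes are exons. The red bar lies above the grey bar in every region, and single long gains cover the start of Prph2, Rp1 and Rp1l1.

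Prph2, the disc rim tetraspanin without which outer segments do not form, had the highest share of CpGs in gains of the 6 when whole genes were taken. Gains held 81.5% of the 390 CpGs of its locus (chr17:46905459-46929933), and only 2 of the 21853 genes had a higher share. WGBS in them stood at 33.4% for Cre- and at 72.5% for Tet tcKO. One gain, chr17:46910034-46923775, began 425 bases before the start and ran through exons 1 and 2 and both introns into exon 3, going from 28.1% to 70.5%. It is the eighth longest of 191164 gains, and a second gain of 4844 bp (49.2% to 77.9%) followed it from the 3′ UTR into the downstream flank. Within the gene itself 99.2% of CpGs lay in a gain.

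5hmC at Prph2 followed the position in the gene. In Cre- it was 29.6% in a region that ends 689 bases before the start. It was 4.52% in the region that begins 3 bases after the start and 7.82% at the end of exon 1. It was 14.9% from 5960 to 7187 bases after the start, in intron 1, and about 20% in intron 2 (20.6% and 20% in the 2 longest regions). It then reached 32.4% in exon 3 and across the gene's end. The 5′ part of the gene was thus low in 5hmC, and the stretches on both sides of it were high. In Tet tcKO the levels of all 14 regions lay between 1% and 10.4%. The region with the most CpGs (161), chr17:46927927-46936082 downstream of the gene, went from 29.5% to 7.72%. Every CpG of the Prph2 locus lay in a gain, in a 5hmC loss or in both.

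Rom1, the partner of Prph2 at the disc rim, is a short gene of 1966 bp between Eml3, whose start lies 196 bp away on the other strand, and B3gat3, whose gene lies 155 bp beyond its other end. Gains held 56.7% of the 233 CpGs of its locus (chr19:8922391-8934356), a share that 46 genes exceeded. WGBS in them stood at 18.3% in Cre-, the lowest of the 6, and at 49.8% in Tet tcKO. The main gain, chr19:8925235-8929207, held 73 CpGs and went from 19.8% to 63.8%. It began 149 bases after the start, in exon 1, covered the rest of the gene and ran over its end towards B3gat3. Without the flanks, 97.4% of the CpGs of Rom1 lay in a gain.

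The start of Rom1 itself lay outside a gain, in a stretch with 61 CpGs within 500 bp on either side, where the median of all genes is 43. The next region upstream, chr19:8929639-8929845, lies within Eml3 and stayed near 0 in both groups, at 4.57% in Cre- and 6.88% in Tet tcKO. This is the smallest rise at the 6 genes, although the region holds 26 CpGs. Between this region and the main gain lie 431 bases, and their means in Tet tcKO were 6.88% and 63.8%. These are means over whole regions, so the lists do not show where between or within them the level changes. 5hmC inside Rom1 was low in Cre-, at 8.34% in exon 1 and intron 1 and 10.6% at the gene's end. In the flanks it was 20.1% to 35.9%. The bACE-seq region with the most CpGs (49), chr19:8932144-8935215, lies in Eml3 and went from 20.1% to 4.76%.

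Rp1, which binds the axoneme and keeps the discs in register, showed the largest rise of a single gain. The gain chr1:4350858-4361181 began 867 bases before the start of the principal transcript (ENSMUST00000027032.5) and ended 9456 bases after it, beyond exon 3. It held 69 CpGs and went from 22.6% (Cre-) to 72.7% (Tet tcKO), 50.1 points more. Exon 4, which holds most of the coding sequence, carried 3 further gains, the first of which (chr1:4349195-4350039) went from 30.8% to 78.3%. In the principal transcript with its flanks, gains held 85.3% of 156 CpGs, at 36.4% in Cre- and 76.9% in Tet tcKO.

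The annotated gene is far larger than this transcript, and the share depends on which of them is taken. The gene spans 409685 bp because 2 further coding transcripts start 48873 and 48927 bases upstream of the principal start and the annotation runs on far downstream of its end. Over the whole gene with its flanks, gains held 11.5% of 1925 CpGs, a share that 6135 genes exceeded. At both distant starts no gain was listed within 23859 bases. The 4 gains farthest downstream, 168916 bases or more from the principal start, rose by 2.59 to 13.1 points. The 3 farthest upstream, 19308 bases or more from it, rose by 27.1 to 35.1 points.

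Rp1 was also the gene with the fewest bACE-seq regions listed near its start. From 5340 bases upstream of the principal start to 11720 bases downstream of it, the only listed bACE-seq region was one of 105 bp in exon 2, at 3.24% in Cre- and 0.795% in Tet tcKO. The last exon then held 2 regions at 28.6% and 27.2% in Cre-, with 7.47% and 6.42% in Tet tcKO. The large gain over the start thus fell where almost no bACE-seq region was listed. The list holds only regions that differ between the groups, so it does not give the 5hmC level of this stretch in Cre-. Over the whole gene, 24.6% of CpGs lay in a 5hmC loss, the lowest share of the 6 genes, and 31.4% did so over the principal transcript with its flanks. The region with the most CpGs (24), chr1:4394512-4395747, begins 34198 bases upstream of the principal start and went from 19.9% to 4.91%.

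Rp1l1, the relative of Rp1 on the axoneme, had a gain of 9944 bp over its start. This gain, chr14:63991762-64001705, reached from 744 bases before the start to 9199 bases after it, in intron 1. It held 104 CpGs and went from 35.5% to 71.5%. A second long gain of 6232 bp lay further into intron 1 and went from 58.4% to 82.6%. Gains held 46.8% of the 530 CpGs of the locus (chr14:63987506-64040025), at 49.7% in Cre- and 77.8% in Tet tcKO. Of all genes, 97 had a higher share. In the last exon, which holds most of the coding sequence, 3 short gains started from a high level, 82% to 87.4% in Cre-, and rose by 5.25 to 7.47 points.

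5hmC at Rp1l1 was the highest of the 6 genes, at 27.8% in Cre- and 6.91% in Tet tcKO over its 5hmC losses, and 195 of 19278 genes with a 5hmC loss had a higher Cre- level. The level again rose with distance from the start. It was 9.71% to 10.4% in the 3 regions from 941 to 3772 bases after the start and 20.3% in the following 2. It lay between 21.7% and 39.3% over the rest of intron 1. The region with the most CpGs (87), chr14:64032384-64039930 at the gene's end, went from 26.5% to 7.09% and overlapped no WGBS region.

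**Figure D2:**
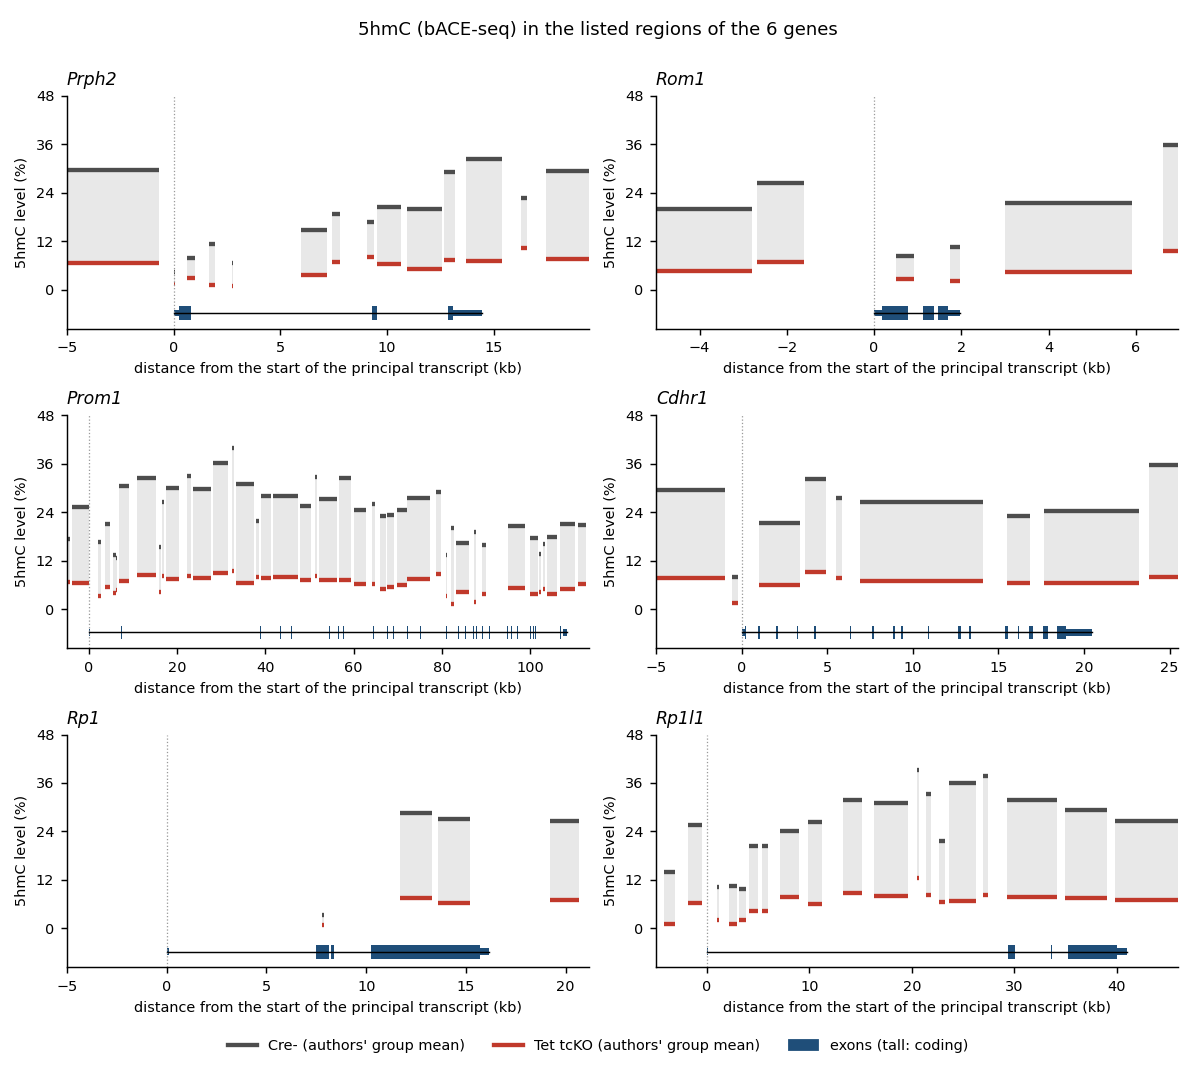
5hmC level in percent (vertical axis) of each listed bACE-seq region by distance from the start of the principal transcript in kb (horizontal axis). Grey bars are the Cre- mean, red bars the Tet tcKO mean and blue boxes exons. Grey bars are low or missing just after the start of all 6 genes and higher further on, with the highest bar of Rp1l1 in intron 1 (39.3%) and not at the gene's end (26.5%), and every red bar lies below its grey bar.

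Prom1, the prominin at the base of the outer segment, is a gene of 108413 bp with 12 annotated coding transcripts and several starts. Gains held 33.7% of its 1220 CpGs (chr5:43988620-44107032), at 55.7% in Cre- and 82.6% in Tet tcKO, and 438 genes had a higher share. They were crowded into the 5′ part of the gene. Of the 21 gains, 1 lay upstream, 11 lay between the start and the end of intron 2, and 9 lay further on. The region with the most CpGs (80), chr5:44093565-44100024, went from 40.5% to 77.2% and spans intron 1 and exon 2.

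The principal start of Prom1 lay between gains, 189 bases from the nearest. The gain upstream of it, chr5:44102143-44103237, went from 54% to 76.8%. The gain over intron 1 and exon 2 covers 5 of the 9 annotated starts of coding transcripts, those from 44094713 to 44099225. The gene therefore has starts inside and outside a gain. In the 3′ part of the gene gains were few and started high, such as one in intron 26 at 86.9% in Cre- and 95% in Tet tcKO.

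5hmC losses at Prom1 covered far more of the gene than gains did, with 80.7% of its CpGs against 33.7%. Cre- had 25.5% and Tet tcKO 6.51% in them. The region highest in Cre-, in intron 2, went from 40% to 9.55%, and the lowest, in intron 1, went from 12.6% to 4.64%. Regions from exon 21 to the gene's end lay between 13.7% and 21.1% in Cre-. The 2 regions with the most CpGs (60 each) went from 27.5% to 7.39% over exons 12 and 13 and from 25.2% to 6.54% upstream of the start.

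Cdhr1, the cadherin at the edge of growing discs, had the lowest share of CpGs in gains of the 6 apart from Rp1. Its 6 gains held 24.3% of 284 CpGs (chr14:37072857-37103347), at 45.1% in Cre- and 72.9% in Tet tcKO, and 1251 genes had a higher share. The region with the most CpGs (21), chr14:37094262-37095528, lies from intron 3 to intron 4 and went from 40.6% to 73.1%. The largest rise was nearer the start, where chr14:37096463-37097660 went from 29.7% to 64.8%. No gain covered the start, and the nearest began 687 bases after it.

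5hmC at Cdhr1 was 25.9% in Cre- and 6.87% in Tet tcKO, in regions that held 80.6% of its CpGs. The low point was again beside the start, at 8.04% in Cre- and 1.56% in Tet tcKO in a region of 305 bp upstream of it. The region with the most CpGs (71) covers exons 7 to 12 and went from 26.6% to 6.9%. From exon 5 onwards gains were sparse, with 2 of them and 15 CpGs in all, whereas the list of 5hmC losses ran on to the end of the gene and beyond it.

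**Figure D3:**
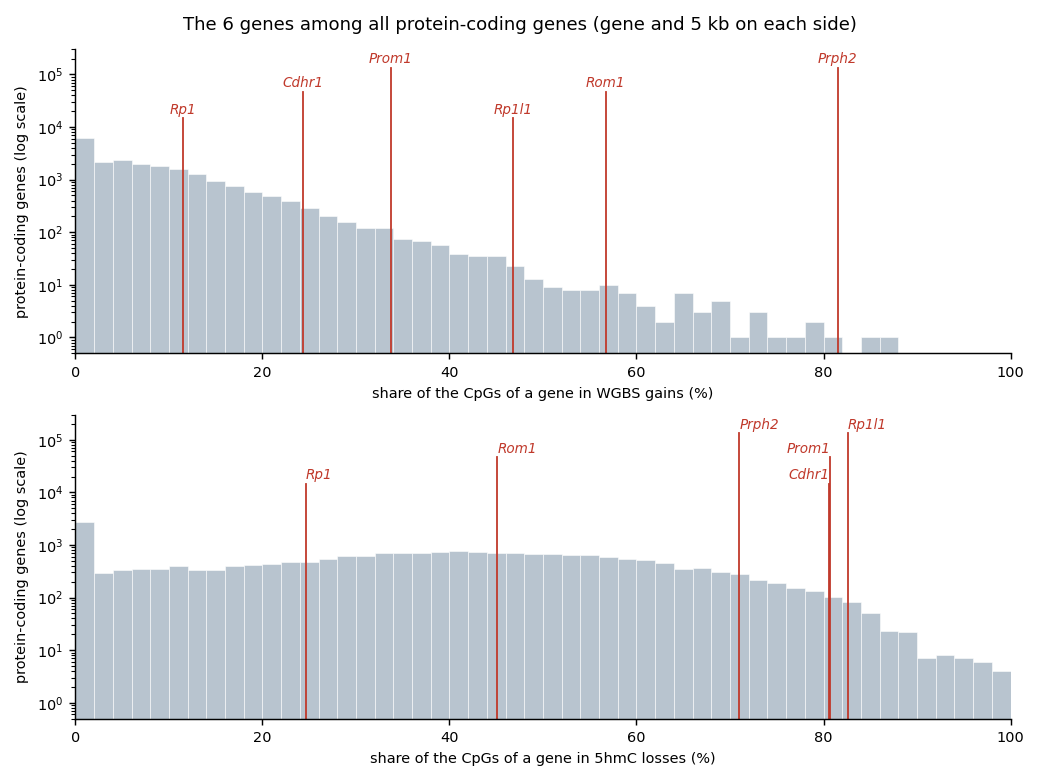
Number of protein-coding genes (vertical axis, log scale) by the share of a gene's CpGs, in percent, that lies in WGBS gains (upper panel) or in 5hmC losses (lower panel), with the gene taken with 5 kb on each side. Red lines mark the 6 genes. Prph2 at 81.5% and Rom1 at 56.7% lie in the far tail of the upper panel, Rp1 at 11.5% lies within its bulk, and 4 of the 6 lie at 71% or more in the lower panel.

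The start sites separated the 6 genes into 3 and 3. A gain covered the principal start of Prph2, Rp1 and Rp1l1, and of 5.04% of all protein-coding genes. No 5hmC loss covered the principal start of any of the 6, where 11.8% of all genes had one. Other coding starts of Prom1 did lie in a 5hmC loss, among them the outermost (25.2% in Cre-, 6.54% in Tet tcKO). The starts without a gain were those with more CpGs around them. Within 500 bp there were 6 CpGs at Rp1, 16 at Rp1l1 and 25 at Prph2, against 34 at Prom1, 38 at Cdhr1 and 61 at Rom1. Over all genes, a gain covered 2.33% of starts with 62 or more such CpGs, 7.05% of those with 20 to 61 and 5.75% of those with 19 or fewer. The share over all genes thus did not fall steadily with the number of CpGs.

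The gains over these 3 starts were long and large beside those over other starts. Of the 1101 genes with a gain over the start, 3 had a longer one than Prph2, 7 than Rp1 and 9 than Rp1l1, and the median length was 487 bp. The rise was exceeded by 16 of them for Prph2, by 3 for Rp1 and by 50 for Rp1l1, and the median rise was 13.1 points. In Cre- the level of these gains did not stand out in the same way. It was 28.1%, 22.6% and 35.5%, beside a median of 33.9%, whereas in Tet tcKO all 3 were between 70.5% and 72.7%, beside a median of 56.4%.

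By position in the principal transcripts of all 6 genes, gains and 5hmC losses were distributed differently. Gains held 75.9% of the CpGs in the first introns and 36% of those in later introns. 5hmC losses held 53.8% of the CpGs in the first introns and 86.9% of those in later introns. In coding exons the shares were 55.8% for gains and 76.4% for 5hmC losses. In 5′ UTRs they were 41.5% and 13.2%, and in 3′ UTRs 43.1% and 92.2%. In the first 5 kb after the start, 68.4% of CpGs lay in a gain, at 29.6% in Cre- and 70% in Tet tcKO, and 42% lay in a 5hmC loss, at 16.7% and 4%. These shares pool the CpGs of the 6 genes, so the gene with the most CpGs in a class weighs most. That is Rp1l1 in first introns (243 of 585 CpGs) and coding exons (99 of 339), and Prom1 in later introns (876 of 1099). All positions inside a single region carry the same level.

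Where a gain and a 5hmC loss overlap, the same CpGs have a level from both assays. The share of gain CpGs that also lay in a 5hmC loss was 90% at Prom1, 76.2% at Rp1l1, 75.4% at Cdhr1, 64.5% at Prph2, 51.1% at Rp1 and 41.7% at Rom1. At these shared CpGs the WGBS level minus the 5hmC level is lower in Cre- at every gene by the choice of the regions. Its direction is therefore not a result. The difference was 15.1 points in Cre- and 67.6 in Tet tcKO at Prph2, and 1.79 and 57.7 at Rom1. At the other 4 genes it lay between 21 and 32.4 points in Cre- and between 67.4 and 76.7 in Tet tcKO. The 5hmC mean was 43.9% (Rp1) to 91.6% (Rom1) of the WGBS mean in Cre-, and 6.95% to 9.33% in Tet tcKO. Subtraction and ratio are rough, since both lists hold means over regions with different borders. At Rom1 the Cre- mean of 5hmC even exceeded that of WGBS in overlapping regions (35.9% against 33%, and 26.4% against 24.4%), although WGBS reads both marks. The Cre- difference and ratio at Rom1 therefore do not give the part of the modification that is 5hmC. Of the 64 gains, 58 overlapped a bACE-seq region, and of the 151 5hmC losses, 79 overlapped a WGBS region. These are 90.6% and 52.3%, beside 81.2% of all gains and 24.2% of all 5hmC losses in the genome. The median length of a gain was 385 to 4844 bp at the 6 genes against 380 bp over all gains. That of a 5hmC loss was 462.5 bp (Prph2) to 2400 bp (Cdhr1), against 521 bp over all 5hmC losses. Whether the overlap depends on region length was not tested.

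**Figure D4:**
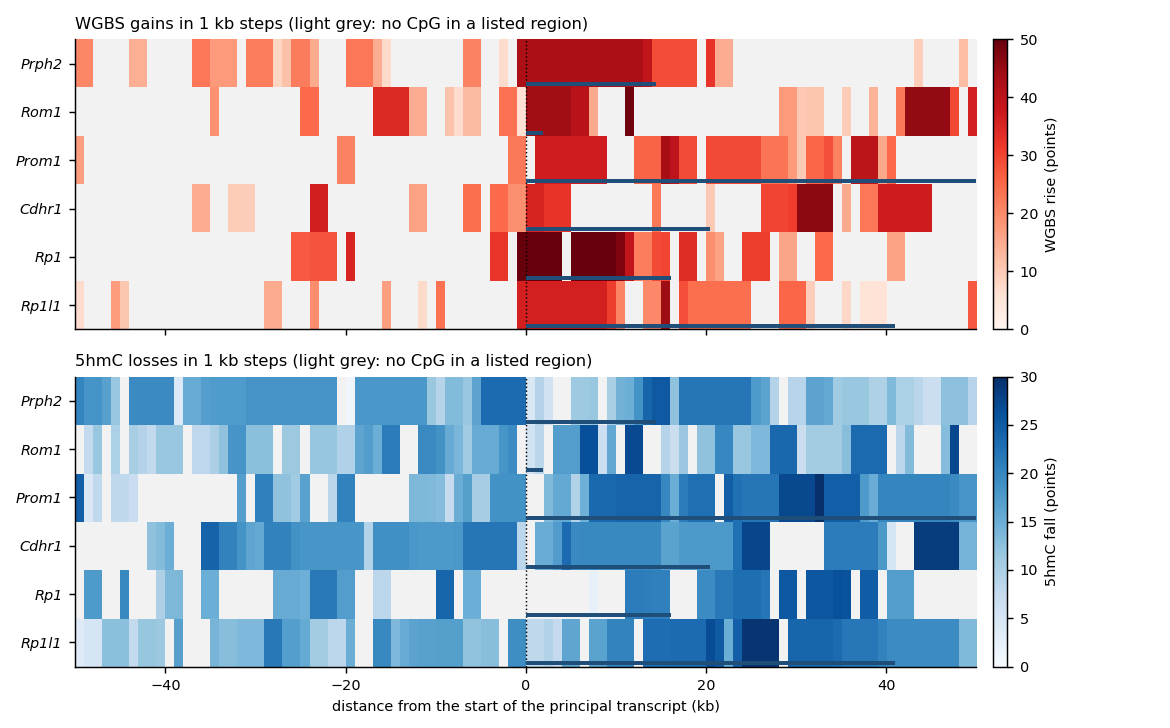
Rise of the WGBS level (upper panel) and fall of the 5hmC level (lower panel), in percentage points by colour, in steps of 1 kb up to 50 kb on each side of the principal start (dotted line), with a row for each gene and a blue line for the transcript. Light grey marks steps with no CpG in a listed region. In the upper panel, runs of dark steps begin at the start of Prph2, Rp1 and Rp1l1, and at Rom1, whose gain begins 149 bases after its start. In the lower panel the first step after the start is pale or empty at every gene.

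Beyond the flanks, gains became sparser at most of the 6 genes. From 5 to 50 kb upstream of the transcript, gains held 25.3% of CpGs at Prph2, 14.9% at Rom1 and between 1.17% and 9.22% at the other 4. From 5 to 50 kb downstream the share was 9.02% at Prph2, 21.1% at Rom1, 1.38% at Prom1, 27.2% at Rp1 and 14.2% at Rp1l1. Cdhr1 was the exception, with 42% of CpGs downstream in gains against 24.3% in its transcript and flanks. 5hmC losses varied more between genes. At Prph2 they held 71% of CpGs in the transcript and flanks, 75.8% upstream and 65% downstream. At Rom1 these shares were 45.1%, 52% and 38%, and at Rp1 31.4%, 44.7% and 55%. At the other 3 genes they were lower on both sides than in the transcript and flanks. They went from 80.7% to 24% and 16.8% at Prom1, from 80.6% to 57.1% and 62.4% at Cdhr1, and from 82.3% to 64.8% and 52.7% at Rp1l1.

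Of the 10 nearest genes on both sides of the members other than Rom1, 9 had a lower share of CpGs in gains than the member, though 4 of the 10 lie close enough to share a flank with it. At Prph2, gains held 23.1% of the CpGs of Tbcc and 13.9% of those of Ubr2. At Prom1 they held 4.46% at Fgfbp1 and 33.2% at Tapt1, which lies 73122 bp away. At Rp1 they held 1.76% at Xkr4 and 1.45% at Sox17, and at Rp1l1 14.1% at 4930578I06Rik and 14.5% at Prss55. At Cdhr1 they held 17.3% at 2610528A11Rik and 51% at Lrit2, where the level went from 27.9% to 62.5% and a gain covered the start. B3gat3 (44.9%) and Eml3 (44.3%) cannot be set against Rom1, because their loci contain it and share its regions.

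Other genes of the outer segment and its surroundings were described in the same way. The list holds 2 subunits of the rod cGMP-gated channel (Cnga1, Cngb1), the disc protein Prcd, and Pcare and Fscn2, which act on actin. It also holds 2 proteoglycans of the matrix around the outer segment (Impg1, Impg2), the transport protein Tulp1, the polarity protein Crb1 and the ciliary kinase Mak. All 10 had at least 1 gain (76.8% of all genes) and a 5hmC loss (88.2%), and 6 of the 10 had a gain over the principal start (5.04%). Impg1 alone had regions with a lower WGBS level in Tet tcKO, of which there were 3. The median share of CpGs in gains was 24.2%, from 10.3% at Impg1 to 68.1% at Pcare, and the median rise was 23.2 points. The highest rise among them was that of Pcare, 39 points from 32.8% to 71.9%, beside 39 points at Prph2.

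The 4 relatives of the members known mainly outside photoreceptors had smaller rises. Prom2, Cdhr2, Cdhr5 and Dcdc2a had a median share of CpGs in gains of 18.8% and a median rise of 12 points, beside 29.8 points for the 6 genes and 15.8 over all genes. Prom2, the other prominin, went from 22.5% to 30.4%. Cdhr2 had 30.1% of its CpGs in gains, more than Cdhr1, but went only from 36.3% to 45.9%. Their 5hmC in Cre- had a median of 14.1%, beside 23.9% for the 6 genes, 20.6% for the 10 others of the outer segment and 14.5% over all genes. Both lists are small and were compared with no test.

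**Figure D5:**
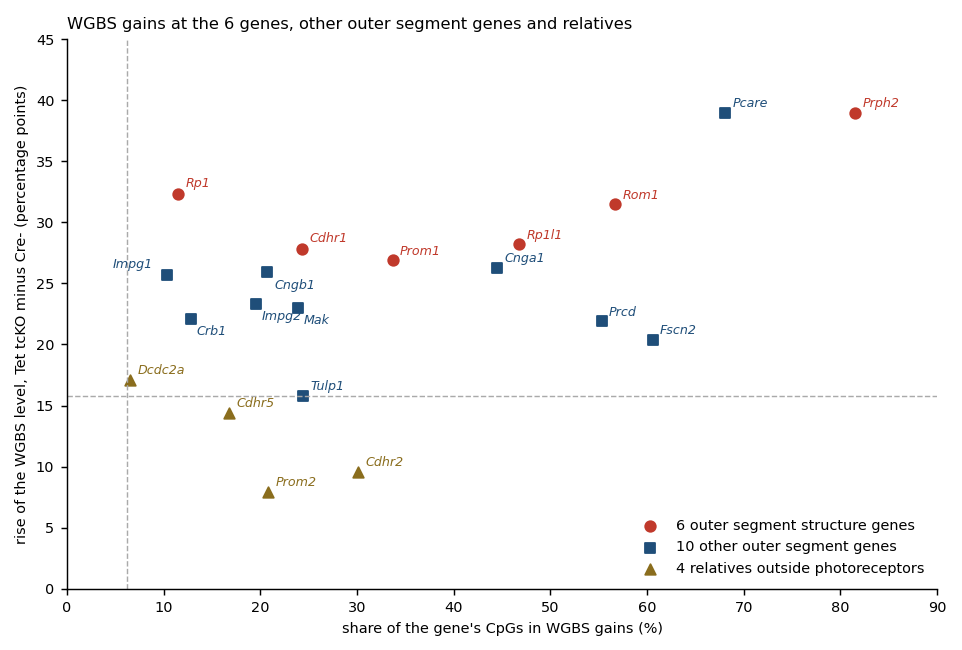
Rise of the WGBS level within gains in percentage points (vertical axis) by the share of the gene's CpGs in gains in percent (horizontal axis), with a point for each gene. Red circles are the 6 outer segment structure genes, blue squares 10 other outer segment genes and brown triangles 4 relatives outside photoreceptors, and dashed lines are the medians of all genes. Prph2 and Pcare lie at the upper right with a rise of 39 points each, and 3 of the 4 relatives lie under the dashed line at 15.8 points.

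The genes most like the 6 as a group were found by distance. Over 6 values (share of CpGs in gains and in 5hmC losses and the levels of both in each group, each divided by its SD over 16139 autosomal genes), genes near the median of the 6 included Ttyh2, Lyrm9, Slc6a6 and Wasf3. Their distances were 0.467 to 0.558. The 6 genes themselves lay farther from their own median, from 1.19 at Prom1 to 4.85 at Rp1, so they do not lie close to each other. These 4 genes had 39.6% to 42.8% of their CpGs in gains and a rise of 25 to 26 points. In none of them did a gain cover the principal start, which says little, as only 5.04% of all genes had one there.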

How the data were processed

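Per the labels, reads were trimmed by the authors (Trim Galore 0.4.4). They aligned reads to mm10 with Bismark (0.18.2), filtered them with SAMtools (1.15.1), removed duplicates with Picard, extracted CpG levels with MethylDackel (0.6.1) and called regions with DSS, which smooths levels along the genome. Smoothing makes borders less exact than levels. The deposited lists hold each region's position, CpG number and the authors' mean level of each group as a fraction from 0 to 1, printed here in percent. The deposited difference and area score are the authors' own comparison and were not used. Group order follows the names of the lists. Coverage and levels per library were not analysed here, and absence from a list does not show an unchanged level.

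CpGs were read from GRCm38, on which every region starts and ends on a CpG. A CpG took the level of its region, and gene levels were weighted by CpGs (Python 3.11.15, numpy 2.4.6, pandas 2.3.3; figures with matplotlib 3.10.9). The code was tested on simulated regions. Genes were protein-coding genes of GENCODE M21 with 5 kb on each side. The principal transcript, the one with the longest coding sequence, gave starts, exons and introns. Its use in the retina was not examined. The 6 genes and both gene lists were chosen with earlier results of these data known. The genes named are the 6, both lists, the nearest gene on each side and the 5 nearest in profile, of which 1 is not reported here. The regions named by rule are, for each gene, those with the most CpGs in either assay and those over the principal start; other single regions were chosen after their values were seen. Sequences were read from mm10. Alternatives were no flank, a 10 kb flank, the principal transcript, a minimum of 10 CpGs, a minimum difference of 0.1, whole regions, regions at least 50% inside the locus, and weighting by base pairs. Other start sites were added after seeing the data.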

Additional observations from a re-analysis of the deposited data

How the results depend on the processing

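No paired analysis was possible because the lists hold 1 pooled mean per group. Leaving out a library was not possible for the same reason. The directions of the rise and the fall are fixed by the choice of gains and losses, so no alternative could turn them. The rise in gains (31.2 points) stayed between 30.5 and 33.2 points, the 5hmC fall between 17.9 and 19.3 points, and the share of 5hmC kept between 24.1% and 25.4%. Shares of CpGs depended more on the definition of a locus and of a region. The median share in gains (40.2%) was 45.1% without flanks, 52.4% over the principal transcripts with 5 kb flanks, 34.6% with regions of at least 10 CpGs and 33.1% by base pairs. The median share in 5hmC losses (75.8%) was 70.1% without flanks, 68.1% with regions of at least 10 CpGs, 67.9% with regions that differed by at least 0.1, 71% with regions at least 50% inside the locus and 63.3% by base pairs. The 64 WGBS regions were 33 with at least 10 CpGs, and the 151 bACE-seq regions were 78 with at least 10 CpGs and 94 over the principal transcripts. A gain covered the start in 3 genes, in 4 if any coding start counts (Prom1 in addition) and in 2 at the outermost start (without Rp1). These moves follow from what each alternative leaves out or adds. A move was judged for shares and levels against a 95% Wilson interval over CpGs, which are not independent, and for counts against a factor of 1.5. The number of libraries and the unknown depth limit every level.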
